A study of Caenorhabditis elegans with 2 samples.

Results

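The 9 germ granule protein genes pgl-1, pgl-3, glh-1, glh-2, glh-4, znfx-1, simr-1, mut-16 and deps-1 were followed through region lists from a chromatin immunoprecipitation sequencing (ChIP-seq) experiment on UNC-130, a forkhead transcription factor of Caenorhabditis elegans. They were taken by name from the 19973 nuclear protein-coding genes of the WBcel235 annotation, with every region whose summit lay between 1000 bp upstream of the first transcript start and the gene end, called the gene window here. All 9 names were found, and their windows held 4 of the final (optimal) peaks, whose list has 1153 distinct regions, and 24 of the 22106 pooled candidate regions. The single group was whole young adult hermaphrodites of strain AGK541, collected 56 hours after starved L1 larvae had been synchronized, with 2 biological replicates. The strain carries the armSi1 transgene on chromosome II, in which the mex-5 promoter drives UNC-130 fused to green fluorescent protein (GFP) and followed by the tbb-2 3′ UTR, together with a cb-unc-119(+) marker. It also carries unc-119(ed3) on chromosome III and niDf199 on chromosome IV, per the labels, and precipitation was with an antibody against GFP. There was no second condition, the lists came from whole worms and cannot say in which cells a region arose, and the depth of each replicate is unknown.

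Germ granules are membraneless bodies of protein and RNA that sit on the outside of nuclear pores in worm germ cells. They hold small RNA pathways in layers: P granules receive exported transcripts, Z granules carry heritable silencing signals, Mutator foci amplify small interfering RNAs, and SIMR foci link piRNA targets to that amplification. The mex-5 promoter is known to be active in the germline, the tissue where these granules form, but expression of the tagged factor by tissue was not measured here. Many worm transcripts lose their first stretch of RNA by trans-splicing, so an annotated start can lie downstream of the point where transcription begins.

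Bases near the summits of pgl-3 and znfx-1 are shown for strings of the type recognised by E2F, a family of cell cycle regulators. Such strings were in the 200 bp around all 4 optimal summits of the members. The share over all nuclear optimal peaks was 23.4%. Bases near the summits of cgh-1 and wago-4 are shown for comparison. Of the 4 stretches, that of pgl-3 alone contains the summit itself. The first 3 sequences hold an E2F string in capitals, and the last, from wago-4, holds a forkhead string in capitals. All are from the RefSeq copy of WBcel235, on the strand that reads the string as spelled.
pgl-3, V:4755504-4755533, minus strand: tttatctatcttTTCCCGCtgtgaacactg
znfx-1, II:9213265-9213294, plus strand: ccttggaagtaTTGGCGCggaaattttttt
cgh-1, III:7498627-7498656, minus strand: ccgccattttgtTTCGCGCgttggctgagt
wago-4, II:12919297-12919326, plus strand: gtggatttacgGTAAACAaggcgcattgcg
The pgl-3 string lay 2 bp from the summit and the znfx-1 string 40 bp from it, measured from the middle of the string.

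An optimal peak was present at 4 of the 9 genes, glh-2, simr-1, znfx-1 and pgl-3, and at none of the other 5. That is 44.4% of the members, against 6.21% of all nuclear protein-coding genes (1241 of 19973) and 11.9% of the 10449 genes with a pooled region in their window. All 9 members had a pooled region. No test was made of this difference, since the members were named with earlier results of these data known. Their windows, of 3584 to 10496 bp, were longer than the median of 3027 bp over all genes. The same 4 genes had one in promoter windows (from 1000 bp before to 200 bp past each annotated transcript start, so that genes with several starts have more sequence), which held an optimal summit at 5.29% of all genes. Signal values are the authors' peak caller's own, on a scale that no label or header states. The member just inside the final list was pgl-3 at 57.0 and the next below was glh-1 at 30.4, on either side of the lowest optimal value of 53.5.

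**Figure D1:**
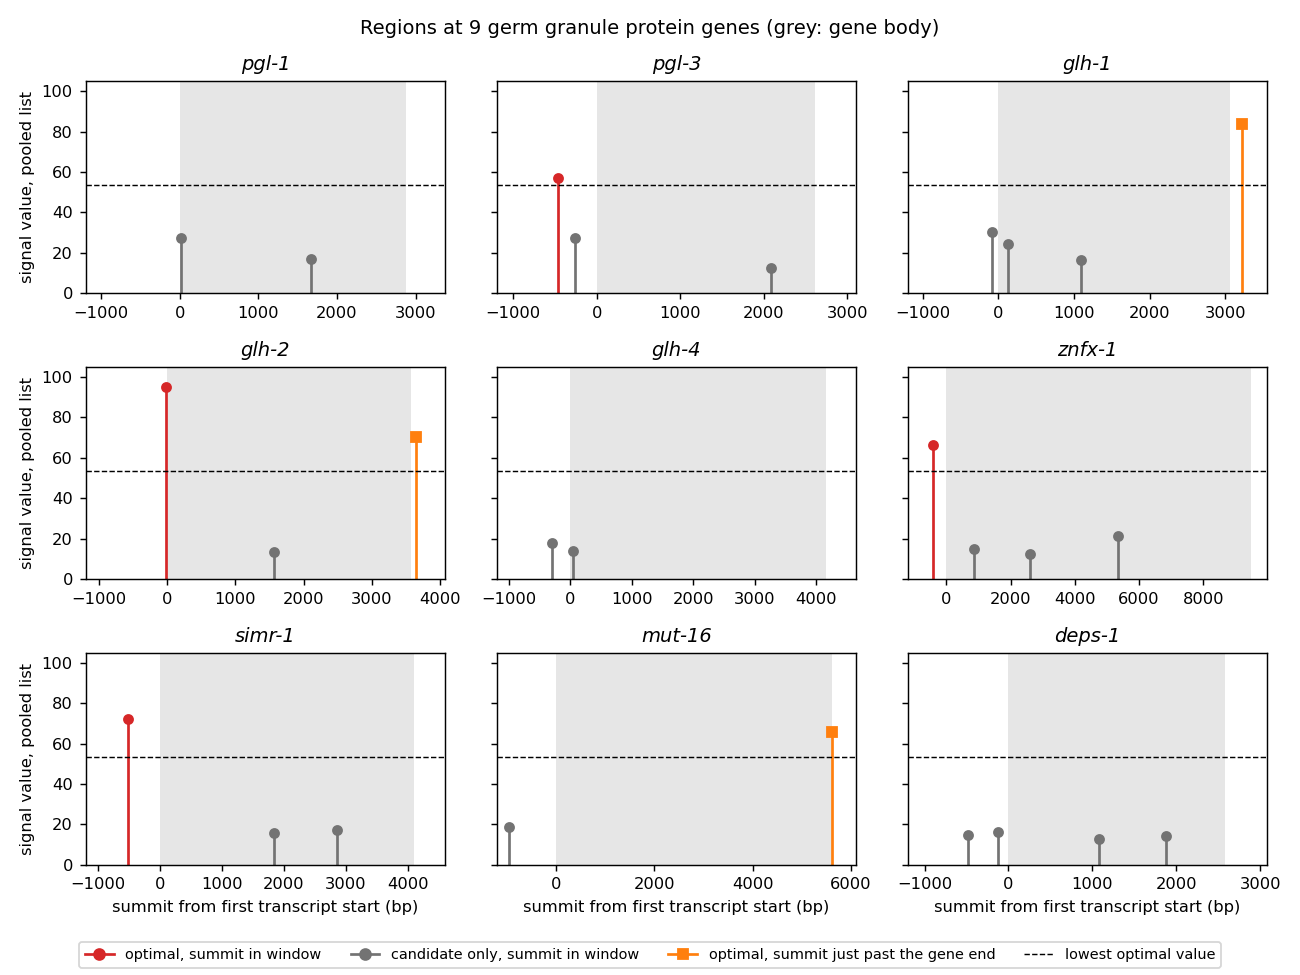
Signal value of each pooled region (vertical axis) against the distance of its summit from the first transcript start in bp (horizontal axis) at the 9 genes, with the gene body in grey and the lowest optimal value, 53.5, as a dashed line. Red regions are optimal with the summit in the gene window, and orange squares are optimal with the summit past the gene end; 4 genes have a red region, all upstream of the start.

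Among the GLH proteins, DEAD-box RNA helicases related to Vasa that give P granules their contact with the nuclear pore, glh-2 had the highest value of all members. Its peak at I:6513689–6514118 had a pooled signal of 95.1 (rank 330), with 45.3 in replicate 1 (rank 494 of 21622) and 49.0 in replicate 2 (rank 266 of 20625). Both replicates therefore placed it well inside the strongest part of their lists, taken as the best regions in the same number as there are optimal peaks. The summit lay 24 bp upstream of the glh-2 start and 74 bp from that of C55B7.11, a gene read in the opposite direction. glh-1 had no optimal summit in its window: its best pooled region, I:6854184–6854613, reached 30.4 (rank 3094), with 14.4 in replicate 1 (rank 5466) and 22.2 in replicate 2 (rank 1700). In the 200 bp around that summit, 111 of 165 overlapping strings of 36 bases occurred elsewhere in the genome. It was 0 of 165 at the optimal summits of glh-2, simr-1, znfx-1 and pgl-3. At the best pooled summits of pgl-1, mut-16 and deps-1, which were not optimal, it was 0 of 165 as well. How reads with several positions were treated is not stated in the labels or headers, and the part this had in the glh-1 value was not tested. glh-4 was weaker, with a best pooled region 303 bp upstream of its start (I:3726509–3726938, signal 17.9, rank 9514), where 47 of 165 such strings occurred elsewhere. Replicate 1 had 12.6 there (rank 7518) and replicate 2 listed no region in the glh-4 window.

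The PGL proteins are the self-assembling scaffold of P granules and end in RGG repeats that bind RNA. The paralogs pgl-1 and pgl-3 fell on different sides of the final list. pgl-3 had an optimal peak at V:4755305–4755734 with a pooled signal of 57.0 (rank 1037), 33.2 in replicate 1 (rank 969) and 27.5 in replicate 2 (rank 1094). Its summit lay 459 bp upstream of the start, 67 bp past the end of the neighbouring gene hil-4, which is read in the same direction. A second pooled region at pgl-3, 257 bp upstream, reached 27.2 and had a counterpart with its summit 255 bp upstream in replicate 2 alone (18.8). At pgl-1 the best pooled region, IV:6977091–6977520, reached 27.5 (rank 3782) with its summit 12 bp into the gene. The replicates differed there: the overlapping region had 20.9 in replicate 1 (rank 2435) and 7.92 in replicate 2 (rank 18224 of 20625). This summit also lay 202 bp from the start of him-3, a meiotic chromosome axis gene read in the opposite direction.

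Both genes of the Z granule and SIMR focus had an optimal peak upstream of the start. znfx-1, which encodes a zinc-finger RNA helicase of Z granules needed for inheritance of silencing, had a pooled signal of 66.1 at II:9213024–9213453 (rank 788), with 49.9 in replicate 1 (rank 377) and 20.0 in replicate 2 (rank 2105). Its peak was thus outside that strongest part of the list of replicate 2. The summit lay 419 bp upstream of the start and in the promoter window of no other protein-coding gene, 139 bp past the end of ZK1067.4. The window of znfx-1 is the longest of the 9, and its other 3 pooled regions, all within the gene, had signals of 12.5 to 21.5. simr-1, which encodes a Tudor-domain protein of SIMR foci, had a pooled signal of 72.1 at I:5986166–5986595 (rank 649), with 37.0 in replicate 1 (rank 778) and 41.5 in replicate 2 (rank 427). Its summit was 510 bp upstream of simr-1 and nearer, at 107 bp, to the start of C06A5.3, read in the opposite direction. The peak therefore belongs to the promoter windows of both genes.

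The remaining genes, mut-16 and deps-1, had no optimal summit in the window. MUT-16 is the glutamine- and asparagine-rich scaffold of Mutator foci. Its only pooled region in the window lay 941 bp upstream (I:10079003–10079432, signal 18.9, rank 8400). Replicate 2 listed 3 regions with their summit in the mut-16 window and replicate 1 listed none. Regions with summits further upstream did overlap the pooled one, with 15.2 in replicate 1 (rank 4826, its summit 120 bp from the pooled summit) and 24.5 in replicate 2 (rank 1382, 238 bp from it). The highest of the 3 (signal 27.7, rank 1077) had its summit in the 3′ UTR. DEPS-1 promotes P granule assembly and the accumulation of glh-1 transcripts. At deps-1 the 4 pooled regions ran from 12.9 to 16.1, the best of them (I:506133–506562, rank 11941) 125 bp upstream of deps-1 and 98 bp from the start of Y65B4BL.4. Replicate 1 had 10.1 there (rank 12539), and replicate 2 listed no region overlapping it. The highest region of replicate 2 at deps-1 had its summit 947 bp into the gene (17.7, rank 2758). The authors' deposited −log10 q-values of the best pooled regions were 2.05 for glh-1, 1.49 for pgl-1, 0.40 for mut-16, 0.33 for glh-4 and 0.22 for deps-1. The 4 optimal peaks in member windows all carried 3.56, from glh-2 at rank 330 to pgl-3 at rank 1037. This was the highest value in both the optimal and the pooled list, so it does not order these peaks. The share of all optimal peaks at that value is not given here.

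A further 3 optimal regions reached into member windows with their summits just past the gene end, at glh-1, glh-2 and mut-16. The glh-1 region (I:6857479–6857908) had a pooled signal of 83.5 (rank 469), 47.7 in replicate 1 (rank 432) and 37.8 in replicate 2 (rank 546). Its summit was 158 bp past the end of glh-1, 4619 bp before the next protein-coding gene, let-383. The glh-2 region (I:6517365–6517794, signal 70.4, rank 687) had its summit 73 bp past the glh-2 end and within coding sequence of che-1, a zinc-finger gene of sensory neurons read toward glh-2. It ranked 513 in replicate 1 and 1245 in replicate 2. The mut-16 region (I:10085564–10085993, signal 65.7, rank 796) had its summit 14 bp past the end and ranked 626 in replicate 1 and 1077 in replicate 2. The replicate 2 summit of this region lay inside mut-16, which is why that gene is counted in replicate 2 and not in the final list. An optimal summit lay 1 to 200 bp past the end of 3 of the 9 members and of 1.42% of all genes, a distance chosen after these regions were seen. With the window extended by those 200 bp, 6 of 9 members had an optimal summit, against 7.22% of all genes.

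The replicates named the same number of members but not the same members. Among the best regions of replicate 1, cut at the number of optimal peaks, were regions of glh-2, simr-1, znfx-1 and pgl-3 (4 of 9, against 6.13% of all genes), and among those of replicate 2 regions of glh-2, simr-1, pgl-3 and mut-16 (4 of 9, against 6.18%). The 3 genes in both sets were glh-2, simr-1 and pgl-3 (33.3% of members, against 4.37% of all genes). znfx-1 was in the set of replicate 1 alone and mut-16 in that of replicate 2 alone. That mut-16 region, at the gene end, ranked 1077 in replicate 2 and 626 in replicate 1, where its summit lay just outside the window. Of the 25 member regions listed in replicate 1, 10 overlapped a region of replicate 2 by 1 bp or more (40%, against 45.8% of all 21599 nuclear regions of that list). In the other direction 15 of 22 did (68.2%, against 47.1% of 20602).

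**Figure D2:**
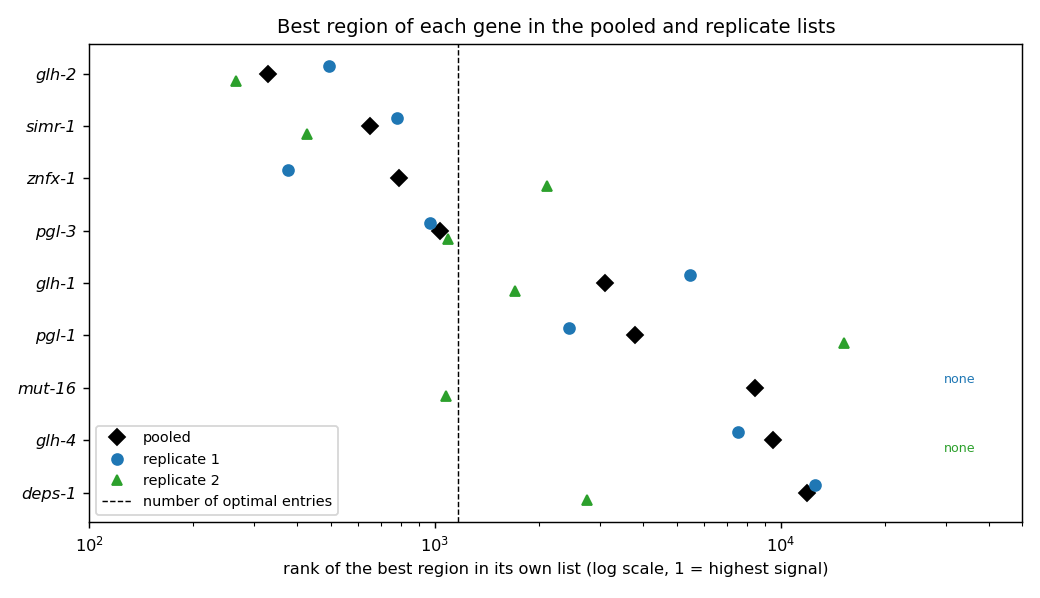
Rank of the best region in the gene window within the pooled list (black), replicate 1 (blue) and replicate 2 (green), on a log axis where 1 is the highest signal, for the 9 genes ordered by pooled rank. The dashed line marks the number of optimal entries; glh-2, simr-1 and pgl-3 lie left of it in all 3 lists, and "none" marks a list with no region in the window.

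Set among the 10449 genes with a pooled region, the members spread over most of the range. Only 3.72% of these genes had a higher best value than glh-2, 6.95% a higher one than simr-1, 8.44% than znfx-1 and 10.7% than pgl-3. For glh-1 and pgl-1 the shares were 27.3% and 31.9%, and for mut-16, glh-4 and deps-1 they were 56.6%, 61.7% and 71.0%. The median of the members' best pooled values was 30.4, against 20.6 over all these genes, and 6 of 9 members were above 20.6. Candidate regions of any strength were also denser in the members' windows, with 0.510 pooled regions per kb, against 0.250 per kb over the windows of all genes.

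**Figure D3:**
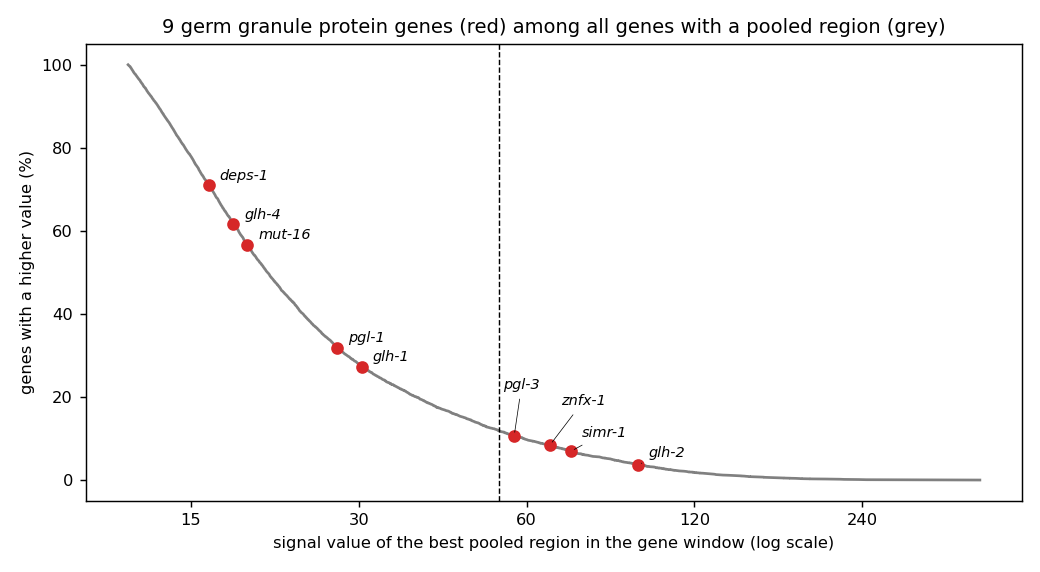
Signal value of the best pooled region in the gene window (horizontal, log scale) against the percentage of the 10449 genes with a pooled region that had a higher value (vertical); the grey curve is all genes and the red points are the 9 members. Right of the dashed line at 53.5 lie pgl-3, znfx-1, simr-1 and glh-2.

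All 4 optimal summits in member windows lay upstream of the start, between 24 and 510 bp away. Over all genes, 73.6% of the 1322 pairs of a gene and an optimal summit in its window were upstream, at a median of 257 bp. The members' summits at 419, 459 and 510 bp were near or beyond the outer quartile of those pairs, 442 bp. None of the 4 was within 200 bp of a tRNA, snoRNA, snRNA or other small RNA gene: the closest was a tRNA gene 1352 bp from the znfx-1 summit. GC content of the 200 bp around these summits was 41.0% at glh-2, 36.5% at pgl-3, 33.0% at simr-1 and 32.0% at znfx-1, where optimal nuclear windows had a median of 39.5% and quartiles of 35.5% and 45.0%.

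Strings of 4 kinds were searched on both strands in 200 bp centred on the best pooled summit of each member. The E2F strings were TTCCCGC, which was found at pgl-3, TTGCCGC, found at glh-2, TTGGCGC, found at znfx-1 and simr-1, and TTCGCGC, found at glh-4. One or another was thus present at 5 of 9 members and at all 4 with an optimal peak. They were present in 23.4% of all 1145 nuclear optimal windows and 9.45% of all 22082 nuclear pooled windows. Their distance from the summit was 2 bp at pgl-3, 15 bp at glh-2, 40 bp at znfx-1, 52 bp at simr-1 and 95 bp at glh-4. The forkhead strings GTAAACA or its variant ATAAACA were at none of the 9, where 8.03% of optimal and 7.11% of pooled windows held one. The GATA string TGATAA (12.8% and 15.6%) and the reversed forkhead control ACAAATG (4.37% and 4.32%) were at none of the 9 either. At the regions past the gene ends of glh-1, glh-2 and mut-16 no E2F string was found, and a GATA string was found at mut-16. Among the 10 other germ granule genes with an optimal peak, an E2F string was at 1 best summit (cgh-1), a forkhead string at 1 (wago-4), a GATA string at 2 (mip-2 and eri-1) and the control string at 0. A match describes these letters and nothing more.

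Other genes of the germ granules were compared in the same windows by role, together with genes of RNA-dependent RNA polymerase complexes. All are called other germ granule genes here, and 45 were found in the annotation beside the 9 members. An optimal summit was present at 10 of the 45 (22.2%, against 6.21% of all genes), and 9 of the 45 had one in a promoter window (against 5.29%). Of 21 genes of P granules and the perinuclear scaffold, 7 had one (33.3%), of 16 of the Mutator and SIMR foci 1 did (6.25%, close to the 6.21% of all genes), and of 9 of the E granule and RNA-dependent RNA polymerase complexes 2 did (22.2%). The gene elli-1 is counted in the first and the last of these lists. The first, called the P granule list below, also holds the Z granule genes wago-4 and pid-2 and the PID-2 partner gene pid-5. Of these, wago-4 and pid-5 are among its 7 with an optimal summit, and pid-2 is not. The gene pid-4 of the same list has none either (best pooled signal 12.1).

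In the P granule list the highest was ifet-1, a translational repressor that binds the cap-binding protein eIF4E, with a pooled signal of 117 at III:4475460–4475889 (ranks 158 and 227 in replicates 1 and 2). Its summit was nearer to the ribosomal protein gene rps-1 (243 bp) than to ifet-1 (525 bp). pid-5, which encodes a partner of the Z granule protein PID-2, reached 116 at V:4175733–4175862, and lotr-1, which encodes a LOTUS and Tudor protein, 89.4 at I:8487251–8487680. The pid-5 summit also lies in the promoter window of the cohesin gene coh-4, and the lotr-1 summit in that of zhp-2. The RNA-binding protein gene car-1 reached 68.6 and the DEAD-box helicase gene cgh-1 64.0, with summits 735 and 831 bp upstream that were nearer to another gene's start (coa-5 and C07H6.9). The Z granule Argonaute gene wago-4 had 56.7 at II:12919147–12919576, with a summit that also lies in the promoter window of F58G1.2. Of these 10 genes and the 9 members, wago-4 was the only one whose 200 bp window held a forkhead string. For mip-2, a LOTUS-domain protein that binds GLH-1, the peak of 55.4 lay in the 3′ UTR, with rank 994 in replicate 2 and 7554 in replicate 1.

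In the Mutator list the single gene was mut-15, with 96.3 at V:15002115–15002544 (ranks 451 and 352), a summit 213 bp upstream that is nearer to the fibrillarin gene fib-1 (107 bp). The other Mutator genes with a pooled summit in the window, such as rde-12 (40.6) and rrf-1 (29.7), had their best one below the final list, like mut-16 itself. The optimal region of mip-2 (V:13669174–13669603) also overlaps the end of rde-12, at V:13669292, with its summit past that end. In the list of E granules and RNA-dependent RNA polymerase complexes, eri-5, a Tudor-domain partner of the polymerase RRF-3, had 76.3 at IV:2390249–2390678. The exonuclease gene eri-1 had 66.9 at IV:419494–419923, within its coding sequence. A second optimal region at eri-1, IV:419705–420134, had 60.7 (rank 913) and its summit 38 bp into the gene, also in coding sequence. The E granule polymerase gene ego-1 was just outside, at 51.1 (rank 1264). The rest of that list, ekl-1, drh-3, elli-1, rrf-2, rrf-3 and pir-1, had no optimal summit either.

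**Figure D4:**
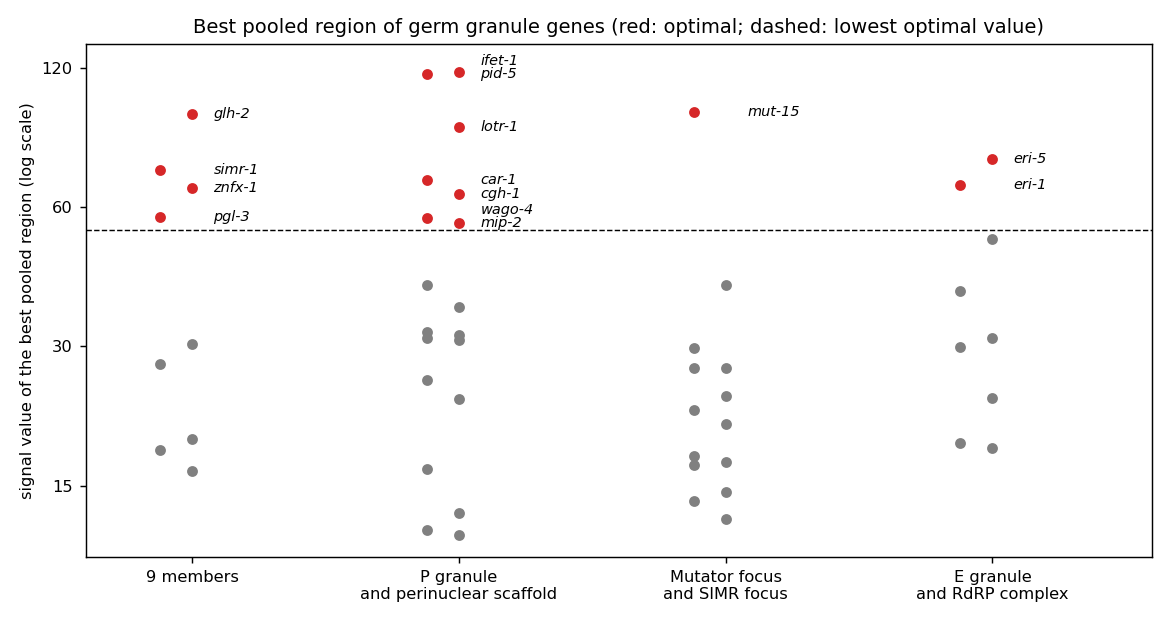
Signal value of the best pooled region in the gene window (log scale) for the 9 members and for the 3 lists of other germ granule genes, each point 1 gene, with those in the final list in red and named and the lowest optimal value of 53.5 dashed. Points share the vertical scale of the pooled list, genes with no pooled region are not drawn, and the small sideways offsets carry no meaning.

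The genes whose ranks were most like those of the top 2 members were found by the distance of log10 ranks over the 3 lists, among 7221 genes with a region in each. For glh-2 (ranks 330, 494 and 266 in the pooled, replicate 1 and replicate 2 lists) they were Y65A5A.2 (340, 492 and 286), suf-1 (355, 507 and 275) and T09F3.4 (350, 466 and 253). For simr-1 (649, 778 and 427) they were C47E8.11 and gasr-8, which share 1 region (629, 808 and 384), and otub-1 (612, 806 and 489).

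The count of members depended on where windows began and how strict the list was. With windows that began 500 bp upstream 3 members had an optimal summit, without simr-1, against 5.34% of all genes, and with 2000 bp upstream the same 4 did, against 7.5%. Counting any overlap of an optimal region with the window added glh-1 and mut-16 for 6 of 9, against 7.39%. Among the 584 optimal peaks of highest signal glh-2 alone remained, 1 of 9 or 11.1%, against 3.27% of all genes.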

How the data were processed

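Per the labels, UNC-130 fused to GFP was immunoprecipitated from 2 biological replicates of whole young adult worms, whose numbers come from the labels; 1 field gives the antibody as anti-GFP, followed here, and another as unc-130. The authors deposited candidate regions of each replicate and of both pooled, prepared for the irreproducible discovery rate (IDR) procedure, and a list of optimal peaks, on ce10 and ce11. The optimal ce11 list consists of every pooled region with a signal of at least 53.5. The signal value and the −log10 q-value of each region are the deposited ones, and the listing names a control alignment; aligner, peak caller and thresholds: not given in the sources used here. Regions hold no counts, so depth is unknown and no interval is given. Columns without a sample or pool numbered 0.

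The ce11 lists were placed on Ensembl release 115 (WBcel235, the same assembly) with Python 3.11.15 and pandas 2.3.3; region ends lay within the chromosome lengths, and the ce10 lists were not used. Coordinates are 1-based, the summit is the region start plus the deposited offset (the middle of the region within 1 bp for 98.9% of pooled and 80.4% of optimal regions), and ranks count all entries of a list. Signals were used to rank within a list. The window code was tested on simulated data (200 of 200 summits recovered). The members, gene lists and strings were chosen with earlier results of these data known; all members, other germ granule genes with an optimal peak, and the 3 genes nearest in rank to the top 2 members were named. rde-12, rrf-1 and ego-1 were named after their values were seen. 1 listed symbol, rde-3, was not in the annotation under that name, while mut-2 of the same list was found. Alternatives were other windows, stricter lists and each replicate alone.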

Additional observations from a re-analysis of the deposited data

How the results depend on the processing

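The count of members with an optimal peak, 4 of 9, was 3 to 6 under other windows and overlap rules, including the window extended past the gene end (6, added after the data were seen). It was 1 among the 584 peaks of highest signal. On each replicate alone (leaving out the other) it was 4 and 4, with 3 genes shared. Among the 584 best regions it was 2 in replicate 1 (against 3.38% of all genes) and 2 in replicate 2 (against 3.22%). With 2 times the number of optimal entries it was 4 (against 11.1%) and 6 (against 11.2%). Of the 45 other germ granule genes 5 had a summit among the 584 peaks (10 in the whole list), against 3.27% of all genes. E2F strings were at 3 members in windows of 100 bp (5 in 200 bp), where 15.7% of optimal and 5.22% of pooled windows held one. The 3 were pgl-3, glh-2 and znfx-1, so the optimal summit of simr-1 had none at that length. A GATA string was at 1 in windows of 400 bp (0 in 200 bp), where 28.0% of optimal and 29.7% of pooled windows held one. With 2000 bp upstream the best pooled region became another for pgl-1 (rank 2033), pgl-3 (893), mut-16 (2078) and deps-1 (4989), and with 500 bp upstream for simr-1 (10484), while mut-16 had none. The causes were not tested. No paired analysis was possible because there is 1 group and no test. Depth is unknown, so a missing region may be one that was not detectable.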
